A study of Homo sapiens with 12 samples.

Results

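The genes encoding the proteasome were examined by RNAseq in the breast carcinoma line SKBR-3, an established culture that carries a HER2 amplification and lacks the estrogen receptor. A set of 33 genes was chosen by symbol from the 20531 genes listed in each library: the 14 subunits of the core particle (PSMA1 to PSMA7 and PSMB1 to PSMB7), 16 subunits of the regulatory particle (PSMC1 to PSMC6, PSMD1, PSMD2, PSMD4, PSMD6, PSMD7, PSMD8, PSMD11, PSMD12, PSMD13 and PSMD14) and 3 assembly chaperones of the regulatory particle base (PSMD5, PSMD9 and PSMD10). PSMD3, a lid subunit whose gene is part of the HER2 amplicon, was left out. All 33 genes were listed and all 33 passed the filter on low counts in every comparison.

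The proteasome is the protease complex that degrades ubiquitin-tagged proteins. Its core particle is a barrel of stacked rings, in which outer alpha subunits form the gate and inner beta subunits carry the proteolytic sites, and its regulatory particle binds, deubiquitinates, unfolds and feeds in substrates through a base with an ATPase ring and a lid. The transcription factor NFE2L1 is known to raise subunit genes together when proteasome capacity falls short, and HER2 signaling is known to drive cell growth and protein synthesis.

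Cells received a non-targeting (NT) siRNA pool or a pool against FOXA1, a pioneer transcription factor of luminal cells, and then DMSO or 300 nM lapatinib, a kinase inhibitor of HER2 and EGFR, for 24 h. By the labels the siRNA was given 48 h ahead of the drug, while the methods of the study state 24 h. Each of the 4 groups (NT siRNA with DMSO, NT siRNA with lapatinib, FOXA1 siRNA with DMSO, FOXA1 siRNA with lapatinib) had 3 replicates, for 12 libraries of polyadenylated RNA. The cells are a single established line, the FOXA1 pool lowers the transcript without removing the gene, and nothing states whether replicates were separate cultures, so p-values measure only the spread between these samples.

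Estimated counts summed to between 25749578 and 32271850 per library, and no member had fewer than 527 counts in any library. FOXA1 checked the siRNA labels: its normalized counts, meaning counts divided by the TMM-scaled library size and multiplied by the mean library size, were between 8307 and 13174 in the 6 libraries with NT siRNA and between 1160 and 2383 in the 6 with FOXA1 siRNA. Of the markers listed for HER2-amplified luminal epithelial lines in general, ERBB2, KRT8, KRT18 and EPCAM were abundant and CDH1 was at 1.9 to 18.9 normalized counts. Of 5 markers of fibroblasts and leukocytes, COL1A1 was at 269.8 to 520.5 normalized counts, while COL1A2, PDGFRB, PTPRC and CD3E did not exceed 8.86. COL1A1 was lower in the lapatinib libraries, and its part in the results below was not tested. The replicate 2 libraries stood apart from replicates 1 and 3 of their own group, and replicate 2 had the lowest normalized count of the 3 for 29 of 33 members in NT siRNA with DMSO, 23 in NT siRNA with lapatinib, 25 in FOXA1 siRNA with DMSO and 14 in FOXA1 siRNA with lapatinib. Values are in relation to the total RNA of a culture, so a lower value for a gene and a larger share of other transcripts cannot be told apart.

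In control cells (NT siRNA with DMSO), transcripts of the core particle were the more abundant. The median over members of the mean TPM, a unit that corrects for transcript length, was 260.9 for the 14 core subunits, 170.0 for the 16 regulatory subunits and 43.2 for the 3 assembly chaperones. PSMA7, an alpha subunit, was highest of all members, with TPM of 756, 667 and 728 in replicates 1, 2 and 3. PSMB4, a non-catalytic beta subunit, followed at 458 ± 13.6 TPM (SD, n = 3) and PSMB1, another, at 358 ± 12.9 TPM. The libraries of each of these 3 genes did not overlap with those of the next gene in the order.

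Within the core particle, PSMB3, a non-catalytic beta subunit, had the lowest mean, with TPM of 175, 159 and 166, and its libraries overlapped with those of PSMB6. Of the 3 catalytic subunits, PSMB5 (chymotrypsin-like site) was at 267 ± 19.2 TPM and PSMB7 (trypsin-like site) at 267 ± 19.2 TPM, and their libraries overlapped. PSMB6 (caspase-like site) was lower, at 168 ± 10.7 TPM, with no library as high as any of PSMB5 or PSMB7. The lowest and the highest core member differed 4.31-fold, although each subunit is present in equal number in the barrel.

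Among the regulatory subunits, the ATPase PSMC5 was highest, with TPM of 322, 304 and 322, and the scaffold subunit PSMD2, at 316 ± 21.8 TPM, could not be told from it, since their libraries overlapped. Another ATPase, PSMC6, was lowest, with TPM of 44.9, 41.7 and 46. The 6 ATPases, which form a ring with a single copy of each, thus spanned 7.15-fold in TPM. The lid subunits ranged from PSMD8 (292 ± 12.3 TPM) to PSMD11 (79.5 ± 3.53 TPM), and the deubiquitinase PSMD14 was at 112 ± 5.43 TPM. The assembly chaperones PSMD5, PSMD10 and PSMD9 were among the 4 lowest members, with PSMC6 between PSMD5 and PSMD10.

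**Figure D1:**
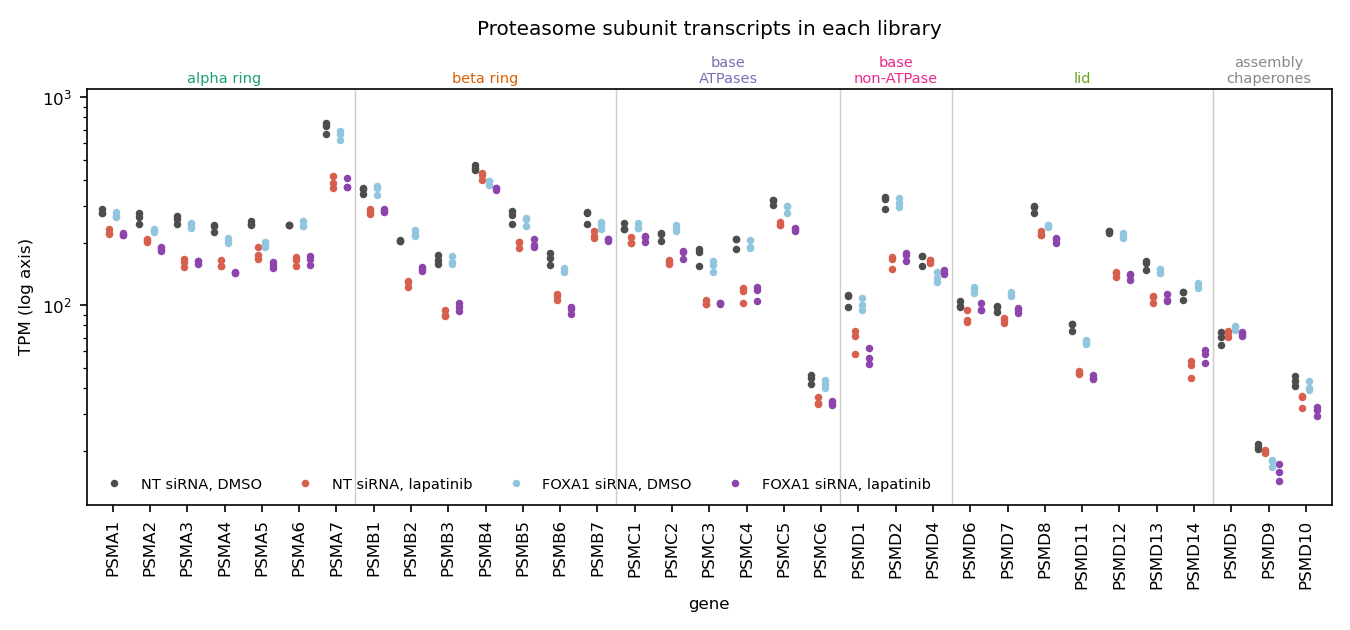
TPM (log axis) of the 33 proteasome genes, with 1 point per library and the 4 groups in colors, ordered by structural group. PSMA7 is highest in control cells, between 667 and 756 TPM, and the lapatinib points lie below the DMSO points of the same siRNA for most members, with PSMB4, PSMD4, PSMD5 and PSMD9 as the members that were not called.

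The response to lapatinib in cells with NT siRNA was addressed by comparing the 3 lapatinib libraries with the 3 DMSO libraries. Subunit transcripts of both particles fell. Of the 33 members, 29 were lower and 0 higher at an adjusted p under 0.05, while 29.2% of the 13713 genes tested were lower and 30.5% higher. By particle, 13 of 14 core subunits, 15 of 16 regulatory subunits and 1 of 3 assembly chaperones were lower. The 6727 genes whose mean normalized count lay within the range of the members (between 689 and 11207) were lower in 34.9% and higher in 34.2%. The groups did not overlap, with every lapatinib library below every DMSO library, for 29 members, against 33.5% of all genes tested, and in the other direction for 0 members, against 32.8%. The median log2 fold change was -0.49 over the core, -0.44 over the regulatory particle and -0.39 over all members, against 0.03 over all genes tested.

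The largest change was in PSMD14, the lid metalloprotease that removes ubiquitin chains from substrates. Its normalized counts were 3174, 2774 and 3101 in the DMSO libraries (replicates 1, 2 and 3) and 1468, 1194 and 1427 in the lapatinib libraries. The groups were far apart, and the mean with lapatinib was 45.2% of that with DMSO, a log2 fold change of -1.12 ± 0.09 (SE, adjusted p = 1.98e-05). PSMD14 was the only member called lower by at least 1 on the log2 scale, as were 7.13% of all genes tested, and no member was higher by this much, as were 6.64%.

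PSMD2, a scaffold of the base that also binds shuttle factors, went from 15553, 13186 and 15379 normalized counts to 7997, 6952 and 7975, and the log2 fold change was -0.92 ± 0.08 (SE, adjusted p = 2.84e-05). PSMD1, the other large scaffold subunit, fell by 0.61 ± 0.11 on the log2 scale (SE, adjusted p = 0.00123). The base member PSMD4, a ubiquitin receptor, differed from its scaffold partners, with 3623, 3108 and 3552 normalized counts in DMSO, 3428, 3426 and 3402 in lapatinib and a log2 fold change of 0.02 ± 0.06 (SE, adjusted p = 0.813). Its lapatinib libraries lay within the range of its DMSO libraries.

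All 7 lid subunits and all 6 ATPases were lower with lapatinib. Among the lid subunits, PSMD11 (-0.71 ± 0.06), PSMD12 (-0.64 ± 0.05) and PSMD13 (-0.49 ± 0.06) followed PSMD14 in size of log2 fold change. PSMD6 (-0.17 ± 0.06, SE, adjusted p = 0.043) and PSMD7 (-0.15 ± 0.05, SE, adjusted p = 0.0428), the latter the binding partner of PSMD14, changed least, and their calls were lost when some single libraries were left out. Of the ATPases, PSMC4 (-0.78 ± 0.09) and PSMC3 (-0.71 ± 0.08) fell most, and PSMC1 (-0.18 ± 0.05, SE, adjusted p = 0.0194) least. The PSMC1 call was also lost when some single libraries were left out.

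In the core particle, PSMA7 had the largest fall, from 11543, 9685 and 10866 normalized counts with DMSO to 6275, 5494 and 5903 with lapatinib, a log2 fold change of -0.84 ± 0.07 (SE, adjusted p = 3.41e-05). The alpha ring was lower in all 7 subunits, from -0.30 ± 0.05 for PSMA1 to that of PSMA7. In the beta ring 6 of 7 subunits were lower, led by PSMB3 (-0.82 ± 0.07, SE, adjusted p = 2.42e-05) and PSMB2 (-0.65 ± 0.05, SE, adjusted p = 2.1e-05). PSMB4 was the exception, with 6877, 6168 and 6503 normalized counts in DMSO and 6041, 5726 and 6296 in lapatinib, a log2 fold change of -0.09 ± 0.06 (SE, adjusted p = 0.198), and its groups overlapped.

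The 3 catalytic subunits all fell. PSMB6 had 2124, 1869 and 2180 normalized counts with DMSO and 1404, 1303 and 1396 with lapatinib, a log2 fold change of -0.57 ± 0.07 (SE, adjusted p = 0.000194). PSMB5, the subunit that clinical proteasome inhibitors bind first, had 4746, 3988 and 4463 and 3358, 3109 and 3445, a log2 fold change of -0.39 ± 0.07 (SE, adjusted p = 0.00169). PSMB7 had 4263, 3560 and 4114 and 3228, 3142 and 3468, a log2 fold change of -0.26 ± 0.07 (SE, adjusted p = 0.0153). For each of the 3, every lapatinib library lay below every DMSO library. PSMB7 had the smallest distance between groups, and without replicate 1 of NT siRNA with DMSO its call was lost at a log2 fold change of -0.21.

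Of the 3 assembly chaperones, which escort the ATPases into the base and are absent from the finished complex, 1 was called. PSMD10 (gankyrin) was lower, at -0.26 ± 0.09 (SE, adjusted p = 0.0267), a call lost without any of 3 single libraries. PSMD5 had 3580, 3933 and 3831 normalized counts with DMSO and 4041, 3807 and 4205 with lapatinib, a log2 fold change of 0.11 ± 0.06 (SE, adjusted p = 0.161), and PSMD9 was at -0.04 ± 0.06 (SE, adjusted p = 0.582). PSMD5 and PSMD9 overlapped between the groups.

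**Figure D2:**
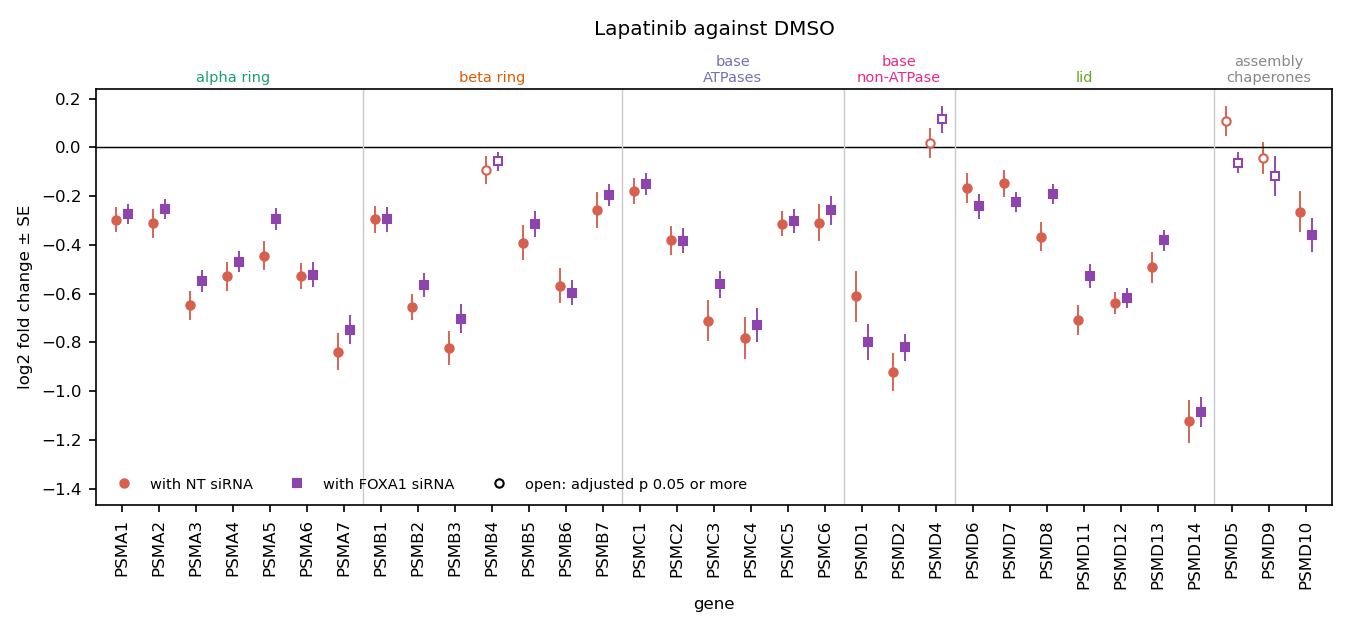
Log2 fold change of lapatinib against DMSO (points) with its standard error (bars) for each of the 33 genes, with NT siRNA (circles) and with FOXA1 siRNA (squares), from 3 libraries in each group. Filled points passed an adjusted p under 0.05, and the 4 genes with open points, PSMB4, PSMD4, PSMD5 and PSMD9, are the same with both siRNAs.

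The summed transcripts of the core and of the regulatory particle fell to similar shares of control, while measures based on medians differed in sign. The summed TPM of the 14 core genes was 4276, 3965 and 4171 in the 3 control libraries and 3017, 2846 and 2907 with lapatinib, so that lapatinib left 70.7% of the control mean. For the 16 regulatory genes the sums were 2924, 2698 and 2901 in control libraries and 2033, 1963 and 1995 with lapatinib, which left 70.3%. The TPM of all listed genes together was 924228 to 939340 in the control libraries and 896833 to 905628 with lapatinib. Both percentages include that shift. The 33 members made up 0.79%, 0.72% and 0.77% of the listed TPM with DMSO and 0.58%, 0.54% and 0.56% with lapatinib. The ratio of the core to the regulatory sum was 1.46 ± 0.0166 (SD, n = 3) with DMSO and 1.46 ± 0.0183 with lapatinib, and the libraries overlapped.

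The sum of the assembly chaperones was 134 ± 5.02 TPM with DMSO and 128 ± 4.93 TPM with lapatinib, again with overlap. The difference between the core and the regulatory median log2 fold change was -0.05. It became 0.00 without replicate 3 of NT siRNA with lapatinib and -0.12 with the assembly chaperones counted in the regulatory particle. The median log2 normalized count of the core genes minus that of the regulatory genes, a difference of levels that is not corrected for length, was -0.11, -0.06 and -0.12 in the DMSO libraries and 0.00, 0.07 and 0.01 in the lapatinib libraries of NT siRNA. Every lapatinib library was above every DMSO library, a shift opposite in sign to the difference between the median fold changes. The same held with FOXA1 siRNA, at -0.16, -0.09 and -0.13 with DMSO and -0.03, 0.08 and 0.02 with lapatinib, where the difference between the median fold changes was -0.01. A median of levels rests on the genes in the middle of the order, and these changed. In replicate 1 of NT siRNA the middle regulatory genes were PSMC3 and PSMC4 with DMSO and PSMD13 and PSMD4 with lapatinib. The shift is thus not a measure of all genes of a particle.

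**Figure D3:**
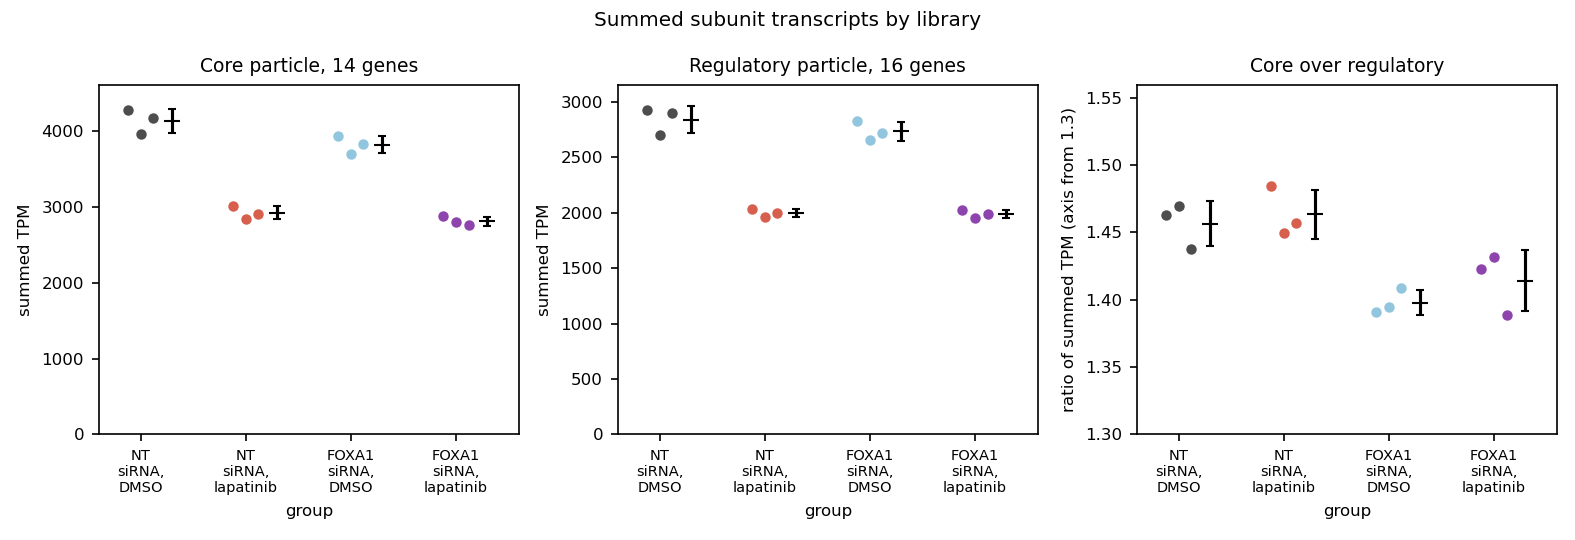
Summed TPM of the core particle genes and of the regulatory particle genes, and the ratio of the sums, in each library (points) with the mean and SD of each group (bars, n = 3). The axis of the ratio starts at 1.3. Lapatinib libraries lie below DMSO libraries in both sums, the ratio overlaps between DMSO and lapatinib with either siRNA, and the ratio with FOXA1 siRNA lies below that with NT siRNA in each medium.

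Of 4 genes that control proteasome transcription, 3 rose and 0 fell, where 30.5% and 29.2% of all genes tested did. NFE2L1 had 5166, 4956 and 5204 normalized counts with DMSO and 10745, 10995 and 11898 with lapatinib, with no overlap, a log2 fold change of 1.16 ± 0.05 (SE, adjusted p = 2.56e-06). DDI2, the protease that cleaves NFE2L1 into its active form, rose as well, by 0.77 ± 0.08 (SE, adjusted p = 7.05e-05), and NFE2L2, the related factor of the oxidative stress response, by 0.25 ± 0.05 (SE, adjusted p = 0.00245). NGLY1, which deglycosylates NFE2L1, was at 0.08 ± 0.05 (SE, adjusted p = 0.232). These 4 genes are measured as RNA, and the processing and activity of NFE2L1 protein were not measured.

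The upstream regions of the members were read from RefSeq promoter windows (GRCh38.p14) because NFE2L1 and NFE2L2 bind antioxidant response elements. Of the 33 members, 28 had an entry, and PSMB1, PSMB6, PSMB7, PSMA7 and PSMD4 had none. The letters TGACNNNGC or TGAGNNNGC, which spell the core of that element, were searched on both strands in the 250 bases before the start of each gene. They were present in 12 of 28 members (42.9%) and in 28.1% of the 27305 genes with an entry. The forkhead letters GTAAACA, the kind of site that FOXA1 recognizes, were present in PSMB2 and PSMD5 (7.14% of members, against 3.66% of genes). Other letters searched were also more frequent in members. CCAAT was in 50% of members, against 37% of genes, and GGGCGG in 67.9%, against 46.2%. The ETS motif CCGGAAGT was in 14.3%, against 4.13%. A higher share in members was thus not particular to the antioxidant response element letters. A match of letters is a description of the sequence and not a bound site.

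The regions of 4 members are shown, chosen as the gene with the largest fall, the ATPase with the largest fall, a catalytic subunit and the core subunit that was not called. Each runs 5′ to 3′ along the gene and ends at the base before its start, with the antioxidant response element letters in capitals. PSMD14 lies at chr2:161308175-161308424 on the plus strand, PSMC4 at chr19:39970915-39971164 on the plus strand, PSMB5 at chr14:23035221-23035470 on the minus strand and PSMB4 at chr1:151399323-151399572 on the plus strand.
PSMD14: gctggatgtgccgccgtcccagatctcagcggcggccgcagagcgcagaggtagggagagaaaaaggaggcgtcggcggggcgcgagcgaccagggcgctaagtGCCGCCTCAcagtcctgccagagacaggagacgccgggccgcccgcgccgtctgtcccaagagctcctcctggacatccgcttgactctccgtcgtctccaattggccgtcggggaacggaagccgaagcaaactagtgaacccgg
PSMC4: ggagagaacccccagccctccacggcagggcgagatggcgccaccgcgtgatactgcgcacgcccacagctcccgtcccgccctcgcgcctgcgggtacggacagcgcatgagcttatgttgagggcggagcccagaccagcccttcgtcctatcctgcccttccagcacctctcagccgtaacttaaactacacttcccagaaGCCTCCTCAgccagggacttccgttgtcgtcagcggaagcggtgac
PSMB5: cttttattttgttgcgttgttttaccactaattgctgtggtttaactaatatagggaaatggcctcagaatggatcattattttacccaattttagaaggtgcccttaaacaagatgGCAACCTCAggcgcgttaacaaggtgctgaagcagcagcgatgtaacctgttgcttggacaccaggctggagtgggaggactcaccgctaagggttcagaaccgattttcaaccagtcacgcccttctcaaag
PSMB4: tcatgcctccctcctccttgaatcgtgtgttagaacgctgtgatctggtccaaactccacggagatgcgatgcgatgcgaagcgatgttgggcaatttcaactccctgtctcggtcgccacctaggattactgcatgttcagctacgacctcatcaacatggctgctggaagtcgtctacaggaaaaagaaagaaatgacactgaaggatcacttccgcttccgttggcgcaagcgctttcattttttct

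The match begins 146 bases before the start of PSMD14, 46 bases before that of PSMC4 and 133 bases before that of PSMB5 in the window shown, and the window of PSMB4 held none. PSMB5 has a further start in RefSeq, whose window (chr14:23034901-23035150, not printed) held a match 18 bases before that start. PSMA5, called lower with lapatinib with either siRNA, held 3 matches, as did PSMD5 and PSMD9, neither called with lapatinib. PSMD2, whose fall was next in size to that of PSMD14, held none in either of its windows. The median log2 fold change with lapatinib in NT siRNA was -0.49 over members with a match and -0.35 over those without. This difference was not tested.

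Other genes for the assembly and regulation of the core were examined beside the same background of 29.2% lower and 30.5% higher over all genes. Of the 5 core assembly chaperones, 4 fell and 0 rose. PSMG3 went from 1999, 1923 and 1917 normalized counts to 876, 950.0 and 803 (-1.13 ± 0.07, SE, adjusted p = 7.29e-06 on the log2 scale), PSMG1 changed by -0.96 ± 0.07 (SE, adjusted p = 1.61e-05), PSMG4 by -0.64 ± 0.15 (SE, adjusted p = 0.00613) and the maturation protein POMP by -0.60 ± 0.06 (SE, adjusted p = 8.71e-05). PSMG2, the partner of PSMG1, was at 0.01 ± 0.06 (SE, adjusted p = 0.891). Of the 5 genes for activators and the inhibitor, 4 fell: PSME2 (-0.74 ± 0.06) and PSME3 (-0.69 ± 0.06), which encode cap subunits, by the most, and PSME4 (-0.20 ± 0.04) and the inhibitor PSMF1 (-0.16 ± 0.04) by less. PSME1, which forms a cap with PSME2, was at 0.01 ± 0.07 (SE, adjusted p = 0.884).

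Of 8 genes for proteasome-bound receptors and enzymes, 5 fell and 2 rose, against the same background. UCHL5, a deubiquitinase docked on the ubiquitin receptor ADRM1, changed by -0.77 ± 0.05 (SE, adjusted p = 1.13e-05), and ADRM1 by -0.56 ± 0.05 (SE, adjusted p = 5.09e-05). PAAF1, which binds free ATPases and restrains assembly, rose by 0.67 ± 0.16 (SE, adjusted p = 0.00782), and the adaptor ECPAS, also known as ECM29, by 0.31 ± 0.04 (SE, adjusted p = 0.000479). Of the immunoproteasome subunits, PSMB8 was at 173, 258 and 139 normalized counts with DMSO, PSMB10 at 531, 724 and 498 (TPM of 35, 50.2 and 33.7, overlapping with PSMC6 and PSMD10), and PSMB9 did not exceed 27.9 in any library. None of the 3 was called (PSMB8 0.05 ± 0.28, SE, adjusted p = 0.89, PSMB9 -0.53 ± 0.45, SE, adjusted p = 0.333, PSMB10 0.38 ± 0.19, SE, adjusted p = 0.124), with PSMB10 called when replicate numbers were a block (adjusted p = 0.00116). PSMA8 and PSMB11, subunits of the testis and the thymus, had at most 1 read in a library and were not tested.

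**Figure D4:**
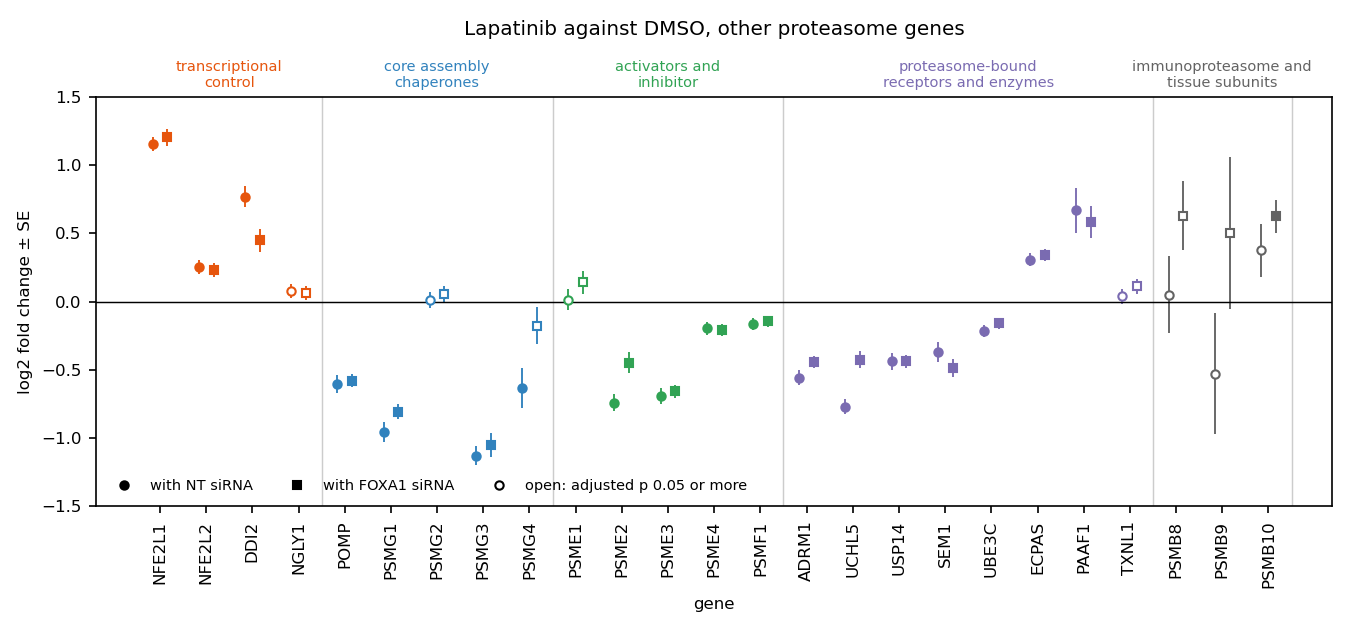
Log2 fold change of lapatinib against DMSO (points) with its standard error (bars) for other proteasome genes, with NT siRNA (circles) and FOXA1 siRNA (squares), from 3 libraries in each group. Filled points passed an adjusted p under 0.05. NFE2L1 lies at 1.16 and 1.20, opposite in sign to POMP, PSMG1 and PSMG3, and PSMB8 and PSMB9 have the widest error bars with either siRNA.

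With FOXA1 siRNA the response to lapatinib was of the same direction. Of 33 members, 29 were lower and 0 higher, against 29.1% and 29.0% of 13745 genes tested, and these were the same 29 genes as with NT siRNA. The groups did not overlap for 30 members, all lower, against 33.1% of all genes lower and 32.2% higher. Again 13 of 14 core subunits, 15 of 16 regulatory subunits and 1 of 3 assembly chaperones were lower. The median log2 fold change was -0.39 over the core, -0.38 over the regulatory particle and -0.36 over all members, against 0.01 over all genes tested. The pair of responses shares no library, and across the 33 genes, which are not independent, Pearson's r of the log2 fold changes was 0.95 and Spearman's rho 0.94. These correlations over all genes, and the share of all genes called alike with both siRNAs, were not computed.

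PSMD14 again fell most, from 3409, 3208 and 3337 normalized counts with DMSO to 1653, 1428 and 1585 with lapatinib, a log2 fold change of -1.09 ± 0.06 (SE, adjusted p = 6.1e-06). PSMD2 went from 15169, 13567 and 14417 to 8420, 7640 and 8233 (-0.82 ± 0.06, SE, adjusted p = 1.22e-05) and PSMD1 from 5543, 4854 and 5153 to 3229, 2713 and 2940 (-0.80 ± 0.07, SE, adjusted p = 4.9e-05). In all 3 genes the groups were separate, and PSMD14 was again the only member lower by at least 1 on the log2 scale, as were 5.12% of all genes (4.93% were higher by this much, and no member). The catalytic subunits changed by -0.60 ± 0.05 (SE, adjusted p = 3.6e-05) for PSMB6, -0.31 ± 0.05 (SE, adjusted p = 0.00119) for PSMB5 and -0.19 ± 0.05 (SE, adjusted p = 0.0063) for PSMB7, and none of the 3 overlapped between groups. PSMD4 had 2970, 2625 and 2781 normalized counts with DMSO and 2939, 2985 and 3097 with lapatinib, a log2 fold change of 0.12 ± 0.06 (SE, adjusted p = 0.109). With replicate numbers as a block it was the only member called higher (adjusted p = 0.0423), where 34.5% of all genes were higher and 34.1% lower.

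Summed TPM with FOXA1 siRNA fell to 73.5% of the DMSO mean in the core and to 72.7% in the regulatory particle, and the ratio of the sums was 1.4 ± 0.00936 with DMSO and 1.41 ± 0.0229 with lapatinib, with overlap. Both percentages include a shift in the TPM of all listed genes, from 922405 to 931808 with DMSO and from 902390 to 914469 with lapatinib. NFE2L1 rose here by 1.20 ± 0.06 (SE, adjusted p = 3.6e-06), from 5496, 4921 and 5570 to 12354, 11620 and 12626 normalized counts. Of the core assembly chaperones, 3 of 5 fell, PSMG3 (-1.05 ± 0.09) and PSMG1 (-0.81 ± 0.06) by the most, and PSMG4 was at -0.18 ± 0.14 (SE, adjusted p = 0.298). PSMB10 was called higher here, from 593, 663 and 511 to 894, 1025 and 791 normalized counts, a log2 fold change of 0.62 ± 0.12 (SE, adjusted p = 0.00233).

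Whether FOXA1 siRNA altered the lapatinib response was tested by an interaction term, fitted over all 12 libraries. By edgeR, 0 members were called, where 3.99% of 14012 genes were higher and 3.20% lower, that is, with a response shifted up or down by FOXA1 siRNA. The count at an unadjusted p under 0.05 was 4 members (PSMA5, PSMD5, PSMD8 and PSMD11) by edgeR, against 22.2% of all genes, and 4 by DESeq2, against 21.2%, which also called 0 after adjustment. Interaction estimates of members lay between -0.17 and 0.19 on the log2 scale with standard errors between 0.06 and 0.14, and 26 of 33 were above 0, against 51.1% of all genes. An estimate above 0 means a log2 fold change with lapatinib that was less negative, or more positive, with FOXA1 siRNA. With replicate numbers as a block, PSMD8 (0.19 ± 0.07, adjusted p with the block = 0.0374) and PSMD11 (0.19 ± 0.08, adjusted p with the block = 0.035) were called, where 11.1% of all genes were higher and 9.22% lower. In a fit without the block and without replicate 2 of NT siRNA with DMSO, 3 members were called. The share of all genes called in that fit was not computed. A p above the threshold does not show that the responses were equal.

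The library values of the members called with the block are given here. PSMD8, a lid subunit, had 7399, 6496 and 7119 normalized counts in NT siRNA with DMSO and 5254, 5222 and 5581 with lapatinib, then 5774, 5616 and 5785 in FOXA1 siRNA with DMSO and 4829, 5041 and 5102 with lapatinib. The DMSO groups were further apart than the lapatinib groups. PSMD11, a lid subunit that tethers the lid to the core, had 2062, 1819 and 2021, 1198, 1160 and 1198, 1672, 1600 and 1621 and 1148, 1101 and 1124 in the same order of groups, with the lapatinib groups of both siRNAs between 1101 and 1198.

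The effect of FOXA1 siRNA itself was smaller and went in both directions. In DMSO, 4 members were higher and 9 lower, against 21.9% and 21.3% of 13694 genes tested, and the members' shares were 12.1% and 27.3%. With replicate numbers as a block the counts were 6 and 15, against 30.3% and 30.2% of all genes. By particle, 5 of 14 core subunits were lower and 1 higher, and 3 of 16 regulatory subunits were lower and 2 higher. The groups did not overlap for 5 members that were higher and 11 that were lower, against 26.2% and 27.5% of all genes. The median log2 fold change was -0.11 over the core and -0.07 over the regulatory particle, against -0.01 over all genes tested, and no member reached 1 in size, as 4.06% of genes did among those higher and 2.77% among those lower.

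The lower members were led by PSMA5, an alpha subunit, with 3624, 3495 and 3704 normalized counts with NT siRNA and 2915, 2848 and 2751 with FOXA1 siRNA, a log2 fold change of -0.33 ± 0.04 (SE, adjusted p = 0.000617). PSMD4 changed by -0.28 ± 0.07 (SE, adjusted p = 0.0112) and PSMD8 by -0.28 ± 0.05 (SE, adjusted p = 0.00288), with the library values given above. The remaining lower members were PSMD11, PSMD9, PSMB4, PSMA2, PSMA4 and PSMB6, the caspase-like subunit, which went from 2124, 1869 and 2180 to 1836, 1739 and 1780 (-0.19 ± 0.06, SE, adjusted p = 0.0393). None of these 9 overlapped between the groups.

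Of the higher members, PSMD6, a lid subunit, had 1978, 2034 and 1972 normalized counts with NT siRNA and 2404, 2339 and 2242 with FOXA1 siRNA (0.24 ± 0.05, SE, adjusted p = 0.00531). PSMD7 had 2594, 2504 and 2400 and 2880, 2962 and 2874 (0.23 ± 0.05, SE, adjusted p = 0.00554). PSMB2, a non-catalytic beta subunit, had 3433, 3189 and 3352 and 3900, 3580 and 3633 (0.17 ± 0.05, SE, adjusted p = 0.0229), and PSMD5 changed by 0.16 ± 0.05 (SE, adjusted p = 0.0375). In all 4 the groups were separate. PSMB5 and PSMB7 were at -0.06 ± 0.07 (SE, adjusted p = 0.482) and -0.14 ± 0.07 (SE, adjusted p = 0.131), and PSMB7 was called lower with the block (adjusted p = 0.0119).

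In lapatinib, FOXA1 siRNA gave 2 higher and 7 lower members, against 22.7% and 22.2% of 13727 genes tested. With the block the counts were 5 and 11, against 30.6% and 31.1% of all genes. The groups did not overlap for 4 members that were higher and 10 that were lower, against 28.4% and 27.0% of all genes. The median log2 fold change was -0.04 over the core and -0.02 over the regulatory particle, against -0.01 over all genes, and no member reached 1 in size, as 4.51% of genes did among those higher and 3.90% among those lower. This comparison shares no library with that in DMSO. Both of its higher members (PSMB2 and PSMD7) and all 7 of its lower members (PSMA2, PSMA4, PSMA5, PSMB4, PSMB6, PSMD4 and PSMD9) were called in the same direction in DMSO. The share of all genes called alike in both media was not computed. Of these 7 lower calls, 3 were kept under every alternative, and that of PSMA4 under 7 of 14.

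PSMD9, an assembly chaperone, had the largest log2 fold change in lapatinib, from 738, 748 and 745 normalized counts with NT siRNA to 589, 643 and 539 with FOXA1 siRNA (-0.34 ± 0.08, SE, adjusted p = 0.0082). PSMB6 went from 1404, 1303 and 1396 to 1211, 1179 and 1134 (-0.23 ± 0.06, SE, adjusted p = 0.0149) and PSMB4 from 6041, 5726 and 6296 to 5262, 5185 and 5312 (-0.20 ± 0.05, SE, adjusted p = 0.0102). PSMB2 rose from 2144, 2015 and 2085 to 2491, 2518 and 2463 (0.25 ± 0.05, SE, adjusted p = 0.00371) and PSMD7 from 2277, 2210 and 2180 to 2525, 2469 and 2421 (0.15 ± 0.05, SE, adjusted p = 0.0358). The groups were separate in each, and the PSMD7 call was lost under 7 of 14 alternatives. PSMD1, at -0.27 ± 0.11 (SE, adjusted p = 0.0672), was called with the block (adjusted p = 0.00019).

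**Figure D5:**
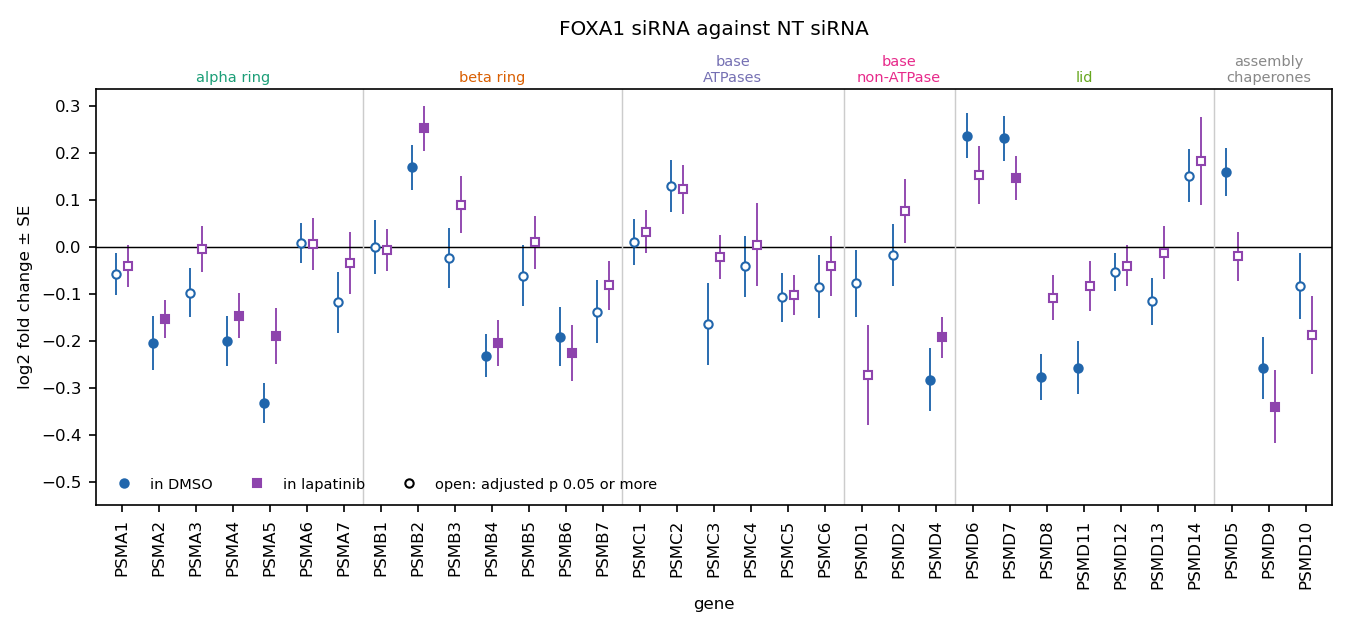
Log2 fold change of FOXA1 siRNA against NT siRNA (points) with its standard error (bars) for each of the 33 genes, in DMSO (circles) and in lapatinib (squares), from 3 libraries in each group. Filled points passed an adjusted p under 0.05. All points lie between -0.34 and 0.25, a narrower range than the response to lapatinib, with PSMA5, PSMB4, PSMB6, PSMD4 and PSMD9 among those lower in both media.

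In DMSO the mean sum of core transcripts differed more between the siRNAs than that of the regulatory ones. The core sum was 92.4% of that with NT siRNA and the regulatory sum 96.3%, and the libraries of the regulatory sum overlapped. In lapatinib the libraries of both sums overlapped between the siRNAs. The ratio of core to regulatory TPM was 1.46, 1.47 and 1.44 with NT siRNA and 1.39, 1.39 and 1.41 with FOXA1 siRNA, and the groups did not overlap. In lapatinib the core sum was 96.2% and the regulatory sum 99.6%, and the ratios also did not overlap (1.48, 1.45 and 1.46 with NT siRNA, 1.42, 1.43 and 1.39 with FOXA1 siRNA). A sum of TPM weighs its most abundant genes, here PSMA7 and PSMB4, the most, and which genes moved the ratio was not tested. In lapatinib PSMA7 was at 417, 368 and 385 TPM with NT siRNA and 411, 370 and 370 with FOXA1 siRNA, with overlap. PSMB4 was at 421, 401 and 431 and at 368, 360 and 367, without overlap. The difference between the median log2 fold changes of core and regulatory genes was -0.04 in DMSO and -0.02 in lapatinib. The median log2 normalized count of the core genes minus that of the regulatory genes overlapped between the siRNAs in each medium. In DMSO it was -0.11, -0.06 and -0.12 with NT siRNA and -0.16, -0.09 and -0.13 with FOXA1 siRNA.

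Of the other proteasome genes, NFE2L1 was at 0.07 ± 0.05 (SE, adjusted p = 0.296) with FOXA1 siRNA in DMSO and 0.11 ± 0.05 (SE, adjusted p = 0.119) in lapatinib. NFE2L2 was higher in both, by 0.43 ± 0.05 (SE, adjusted p = 0.000357) and 0.41 ± 0.05 (SE, adjusted p = 0.000338), and DDI2 lower in both, by -0.28 ± 0.09 (SE, adjusted p = 0.0404) and -0.61 ± 0.07 (SE, adjusted p = 0.000231). NFE2L1 in lapatinib was called with the block (adjusted p = 0.00936). No core assembly chaperone was called in DMSO, where the block called PSMG1 and PSMG3 lower (adjusted p = 0.0343 and 0.00753), and in lapatinib PSMG4 was higher (0.55 ± 0.14, SE, adjusted p = 0.011). The adaptor ECPAS was higher in both media, by 0.25 ± 0.04 (SE, adjusted p = 0.00167) and 0.28 ± 0.04 (SE, adjusted p = 0.00138).

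By position in RefSeq (GRCh38.p14), the 33 genes lie on 15 chromosomes, with at most 5 on any of them. PSMD4 (chr1:151254734-151267479) and PSMB4 (chr1:151399573-151401937), neither called with lapatinib and both lower with FOXA1 siRNA in both media, are 132094 bases apart, a pair singled out after their values were seen. PSMB3 (chr17:38752741-38764225) ends 923869 bases before ERBB2, and it fell with lapatinib while the normalized counts of ERBB2 rose (1.01 ± 0.07, SE, adjusted p = 1.33e-05). RefSeq names 45 pseudogenes after 19 of the members, 13 of them after PSMC1, and 14 members overlap another RefSeq gene. How the deposited counts split reads between such copies, or by strand, is not given, so values of these genes carry that uncertainty, and 7 members had a count that was not whole in at least 1 library.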

How the data were processed

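Polyadenylated RNA of 12 SKBR-3 libraries was sequenced and analyzed per gene. The deposited values of each gene are an expected count (an estimated number of reads, which need not be whole, given by the authors' quantifier), TPM, FPKM and a normalized signal, which the authors made by scaling the count to the upper quartile of the library. The submitters' processing notes name RSEM, R 3.2.2, DESeq and DESeq2 1.12.3, while the methods of the study name STAR, Salmon and the hg38 build. The TPM as deposited served to compare levels between genes, and the deposited FPKM and signal were not used. The protocol names a KAPA Stranded kit and the labels a TruSeq kit, and no source used here states whether reads were counted by strand.

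Counts were rounded and tested in R 4.3.3 with edgeR 4.0.16 (quasi-likelihood test, TMM), the code being tested on simulated data. Each comparison used its own 6 libraries, the interaction all 12, and a gene needed 10 counts or more in 1 library or more. Calls were made at a Benjamini-Hochberg adjusted p under 0.05 across the genes tested. The SE is the size of the log2 fold change over the square root of F. In the files 29 rows (0.0408% of counts) have an Entrez identifier but no symbol, and they stayed in the library sizes and tests. Figures and tables were made in Python 3.11.15. Precision follows from the depth and the 3 replicates, and reads without molecular identifiers are not independent molecules.

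Values in every library are given for the 3 catalytic subunits, for up to 3 called members per comparison and direction by size of change, for the members at the top and bottom of the TPM order of each particle and for selected listed genes, and other members were singled out after their values were seen. The members and lists were chosen with earlier results of these data known. The labels number the replicates 1 to 3 in each group. Same-numbered libraries shared deviations from the mean of their group (18 pairs, 11512 genes, Pearson's r from 0.195 to 0.617, mean 0.360). Between libraries of different number r was from -0.435 to 0.234 (36 pairs, mean -0.171), so the ranges overlapped. Deviations from a group mean cancel within the group, so this negative mean largely follows from the positive mean of same-numbered pairs. It is not a separate observation. The numbers may thus pair the libraries, and a fit with the number as a block was an alternative. Between replicates of a group, chi-square per degree of freedom was 12.1 to 17.6 where replicate 2 was in the pair and 3.62 to 5.68 otherwise, so no library repeated another. DESeq2 1.42.0, scaling by RLE or by the upper quartile, other filters and thresholds, 1 model for all 12 libraries and the removal of libraries were tried as well. The authors' processing of their reads was not repeated. Some genes of the lists are not reported here.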

Additional observations from a re-analysis of the deposited data

Results flagged for a closer look

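No member of the proteasome set was marked for a difference of its lapatinib response between the siRNAs, while among genes of related lists UCHL5 was marked by the test of the difference itself and NPLOC4 by the direction of its pairs. Of the genes of related lists, 1 was called for the interaction and 38 were not called or not tested. Over all genes tested, 3.99% were higher and 3.20% lower. The direction of pairs was searched only among members and listed genes, so its share over all genes is not known.

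UCHL5, the deubiquitinase bound to the receptor ADRM1, had an interaction estimate of 0.36 ± 0.08 (SE, adjusted p = 0.0188) on the log2 scale. Its normalized counts were 1899, 1880 and 1903 with DMSO and 1050, 1131 and 1097 with lapatinib in NT siRNA, and 1926, 2074 and 2023 and 1428, 1599 and 1429 in FOXA1 siRNA. Lapatinib lowered it with both siRNAs (-0.77 ± 0.05 and -0.43 ± 0.06), by less with FOXA1 siRNA. Among the 19 alternatives that refit the interaction, the call was lost in 1, without replicate 1 of FOXA1 siRNA with DMSO.

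NPLOC4, a cofactor of the segregase VCP, fell with lapatinib in each same-numbered pair with NT siRNA and rose in each pair with FOXA1 siRNA, and the mean difference between the log2 ratios was 0.20. Its normalized counts were 6831, 7089 and 6661 with DMSO and 6190, 7013 and 6152 with lapatinib in NT siRNA, and 6086, 7091 and 6069 and 6529, 7649 and 6534 in FOXA1 siRNA. The interaction was at 0.19 ± 0.11 (SE, adjusted p = 0.344) and was called with replicate numbers as a block (adjusted p = 0.016). It was picked by this sign pattern after the values of the members and listed genes were seen, and a cause was not tested for either gene.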

How the results depend on the processing

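Of the 29 members called lower with lapatinib, 24 kept their call with NT siRNA, and 28 with FOXA1 siRNA, in each of the 14 refits (normalization, tool, filter, block, 1 model for all libraries, libraries left out). In those refits no called member changed sign in any comparison. DESeq2 gave the same counts of members as edgeR in all 5 comparisons, with PSMD1 in place of PSMA4 among those lower with FOXA1 siRNA in lapatinib. With a log2 fold change of at least 1 required, 1 member was lower with lapatinib with either siRNA, and 0 were higher and 0 lower with FOXA1 siRNA in DMSO or in lapatinib. At an adjusted p under 0.01, FOXA1 siRNA gave 2 higher and 4 lower members in DMSO and 1 higher and 2 lower in lapatinib. Without a filter on low counts, 1 member was higher with FOXA1 siRNA in lapatinib. The shares of all genes called at that threshold and without that filter were not computed. The replicate block gave 1 member higher with lapatinib in FOXA1 siRNA (PSMD4), 6 higher and 15 lower with FOXA1 siRNA in DMSO, 5 higher and 11 lower in lapatinib, and 2 higher for the interaction. It ended no call of a member and changed no other call of one. Counting the assembly chaperones in the regulatory particle moved the core minus regulatory difference with lapatinib in NT siRNA to -0.12. Replicate 2 of every group was also left out, a choice made after the data were seen. This gave 1 member higher with lapatinib in NT siRNA (PSMD5) and 14 lower with FOXA1 siRNA in DMSO. It also gave 4 higher with FOXA1 siRNA in lapatinib and 3 higher for the interaction (PSMC3, PSMD8 and PSMD11). The shares of all genes called without replicate 2 were not computed.

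With single libraries left out, the core minus regulatory difference with lapatinib in NT siRNA ranged from -0.0769 (without replicate 1 of NT siRNA with lapatinib) to 0.00143 (without its replicate 3), and members higher with lapatinib in FOXA1 siRNA from 0 to 1, the 1 without replicate 1 of FOXA1 siRNA with DMSO. With FOXA1 siRNA in DMSO, members higher ranged from 2 to 4 and members lower from 5 to 14. The 5 came without replicate 1 or 3 of NT siRNA with DMSO, and the 14 without its replicate 2. The 2 came without replicate 3 of NT siRNA with DMSO or replicate 1 or 3 of FOXA1 siRNA with DMSO. With FOXA1 siRNA in lapatinib, members higher ranged from 1 to 2 and lower from 3 to 9. The 3 came without replicate 1 of NT siRNA with lapatinib or replicate 3 of FOXA1 siRNA with lapatinib, and the 1 without replicate 3 of NT siRNA or replicate 1 or 3 of FOXA1 siRNA with lapatinib. Members higher for the interaction ranged from 0 to 3, the 3 without replicate 2 of NT siRNA with DMSO. Fits without a library have fewer samples, and beyond that the cause was not tested. The shares of all genes called in these fits were not computed, so these ranges have no background beside them. Of the members called with FOXA1 siRNA, 2 of 4 higher and 5 of 9 lower in DMSO, and 1 of 2 and 3 of 7 in lapatinib, kept the call in every refit.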

Other observations

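Genes for ubiquitin and for the delivery of substrates to the proteasome were examined as well. Of 12 such genes, 7 were lower and 1 higher with NT siRNA, against 29.2% and 30.5% of all genes tested. With FOXA1 siRNA 8 were lower and 1 higher, against 29.1% and 29.0%, and 2 were higher with replicate numbers as a block. The 1 gene higher with either siRNA was RPS27A, whose call was lost in 10 of 14 refits with NT siRNA and 9 of 14 with FOXA1 siRNA. The median log2 fold change was -0.19 and -0.19. UFD1, the partner of NPLOC4 in the VCP segregase complex, had the largest change of the 12 with either siRNA, from 2169, 1658 and 2109 to 1171, 1154 and 1217 normalized counts with NT siRNA (-0.72 ± 0.10, SE, adjusted p = 0.000296) and by -0.61 ± 0.08 (SE, adjusted p = 0.000276) with FOXA1 siRNA. UBQLN4, a shuttle factor, came next, at -0.50 ± 0.05 (SE, adjusted p = 8.55e-05) and -0.56 ± 0.04 (SE, adjusted p = 2.12e-05). The groups of both genes were separate with either siRNA.

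UBB, a polyubiquitin gene singled out after its values were seen, was lower with lapatinib, at -0.32 ± 0.08 (SE, adjusted p = 0.00739) with NT siRNA and -0.29 ± 0.05 (SE, adjusted p = 0.00121) with FOXA1 siRNA. It had 16162, 13700 and 15646 normalized counts with DMSO and 11833, 11020 and 13023 with lapatinib in NT siRNA. UBA1, the main ubiquitin-activating enzyme, was lower with FOXA1 siRNA in DMSO (-0.33 ± 0.05, SE, adjusted p = 0.00142) and in lapatinib (-0.44 ± 0.06, SE, adjusted p = 0.000802), with no overlap between the groups. RPS27A, a ubiquitin fusion gene of the ribosome, was higher with lapatinib at 0.12 ± 0.04 (SE, adjusted p = 0.0487) with NT siRNA. With FOXA1 siRNA in DMSO, 2 of the 12 genes were higher and 4 lower, against 21.9% and 21.3% of all genes tested. The 2 higher were UBQLN2 (0.23 ± 0.05, SE, adjusted p = 0.00609) and UBQLN1 (0.20 ± 0.04, SE, adjusted p = 0.00655), shuttle factors of the same family.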
